A study of Homo sapiens with 4 samples.

Results

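The heat-shock-inducible chaperones and their transcription factor HSF1 were measured in SKOV3, a human ovarian carcinoma cell line, in cells treated with rhSTIP1 and in controls that had not received it. The genes were chosen with earlier results of these data known. Their probe sets were then taken from the value table by annotation alone. Taken were all probe sets assigned to HSF1, HSPA1A, HSPA1B, DNAJB1, DNAJB4, HSPH1, BAG3, HSPB1, HSPB8 or CRYAB, or to HSPA1A and HSPA1B together. The 10 genes stand among 19776 genes that have a probe set of their own, HSPA1A and HSPA1B counted there as 1. They gave 17 of 54613 probe sets, of which 14 are assigned to 1 of the 10 genes, 2 to HSPA1A and HSPA1B together and 1 to HSPA1A, HSPA1B and HSPA1L, which was kept because it names both. RNA of 2 samples with rhSTIP1 and of 2 controls was hybridised to 4 Affymetrix expression arrays, with no other agent or genotype named. The agent rhSTIP1 is taken here to be recombinant human STIP1, the cochaperone that links HSP70 to HSP90, and neither its dose and duration nor any vehicle or protein given to the controls is stated in the labels. Nothing in them ties the arrays of one group to separate cultures, and the p-values below therefore reflect a spread that may be technical. The title of the study names a pathway spelled SAMD1/5, and the labels pose no question about heat-shock genes.

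Heat-shock proteins hold unfolded proteins and help them fold. HSF1 is kept inactive by chaperones in unstressed cells, and when unfolded proteins draw the chaperones away it forms trimers, binds inverted repeats of the letters GAA in promoters and raises transcription of the chaperone genes. HSPA1A and HSPA1B encode the inducible HSP70, DNAJ proteins deliver clients to HSP70 and stimulate its ATPase, HSPH1 and BAG3 release its nucleotide, and the small heat-shock proteins HSPB1, HSPB8 and CRYAB keep unfolded proteins from aggregating without using ATP. Tumour cells often express these chaperones at a high level without heat.

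HSPA1A and HSPA1B are neighbours in the genome with nearly the same sequence, and the arrays do not tell their transcripts apart. The 250 bases before the start of each gene were compared, because the HSPA1A and HSPA1B probe sets had the largest positive differences of the group, and a DNAJB1 window is set beside them as that of an HSF1 target with overlapping signals. Of the 3 DNAJB1 windows in the table it was picked because it holds the letters searched for, and the other two hold 0 such pairs. The sequences are RefSeq's on GRCh38.p14, printed in the direction of transcription, at chr6:31815293-31815542 (plus strand) for HSPA1A, chr6:31827488-31827737 (plus strand) for HSPA1B and chr19:14518398-14518647 (minus strand) for DNAJB1. Capitals mark GAANNTTC or TTCNNGAA, the 2 ways in which a pair of inverted GAA repeats can be placed, each of which reads the same on both strands.
HSPA1A: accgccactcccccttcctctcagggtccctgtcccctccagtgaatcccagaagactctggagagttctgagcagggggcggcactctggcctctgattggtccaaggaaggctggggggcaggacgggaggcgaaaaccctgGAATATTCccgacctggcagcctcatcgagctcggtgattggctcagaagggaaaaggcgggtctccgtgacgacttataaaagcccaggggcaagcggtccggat
HSPA1B: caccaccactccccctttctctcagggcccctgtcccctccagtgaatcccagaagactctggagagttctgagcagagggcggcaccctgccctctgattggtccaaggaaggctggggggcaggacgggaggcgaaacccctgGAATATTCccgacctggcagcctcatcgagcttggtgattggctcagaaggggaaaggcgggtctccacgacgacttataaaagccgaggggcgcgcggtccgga
DNAJB1: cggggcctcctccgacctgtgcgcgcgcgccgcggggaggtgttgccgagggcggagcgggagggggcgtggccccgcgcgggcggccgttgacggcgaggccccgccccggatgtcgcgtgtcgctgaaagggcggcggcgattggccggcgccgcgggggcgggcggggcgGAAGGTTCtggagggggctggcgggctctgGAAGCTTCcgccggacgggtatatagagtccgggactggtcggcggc
The HSPA1A and HSPA1B windows were identical at 235 of 251 aligned positions (93.6%), and both hold the pair GAATATTC, from base -106 to -99 before the HSPA1A start and from -105 to -98 before the HSPA1B start. The DNAJB1 window shown holds the pairs GAAGGTTC, from -77 to -70, and GAAGCTTC, from -47 to -40. Windows were found for 8 of the 10 genes, and 6 of the 8 had a pair in at least 1 of their windows, HSPH1 and BAG3 being the exceptions. By window, the pair stood in 6 of the 11 windows of these genes and in 4067 of all 35116 windows of this length (11.6%). A match of letters is not a binding site that was measured here.

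The labelled cell line was checked against its markers. Of 10 markers of ovarian epithelial carcinoma cells 9 reached the mean signal at which probe sets were tested, among them the keratins KRT7, KRT8 and KRT18 and ERBB2, a gene known to be amplified in SKOV3, while MUC16 averaged 8.98. Their summed signal was 54534 and 57348 on the rhSTIP1 arrays and 51253 and 50791 on the control arrays. The sum hides differences between arrays 1 and 2 that both groups shared. CDH1 was at 521 and 2110 with rhSTIP1 and 299 and 1355 in controls. KRT19 was at 4534 and 3059 with rhSTIP1 and 6515 and 3123 in controls. Not all markers did so, and KRT7 fell from array 1 to array 2 with rhSTIP1 but rose slightly in controls. The cause was not tested. Of the markers of other cells, 4 of 6 for fibroblasts, 1 of 5 for endothelium and 0 of 4 measured for leukocytes reached that level, and the summed fibroblast signal was 664 and 516 with rhSTIP1 and 621 and 433 in controls, with overlap between the groups. The ratio of 3′ to 5′ signal of ACTB, which rises with RNA degradation, was 2.62 and 8.79 on rhSTIP1 arrays 1 and 2 and 2.74 and 2.45 on the controls. The same ratio of GAPDH was 0.99 and 1.32 on rhSTIP1 arrays 1 and 2 and 0.99 and 1.16 on the controls. Because of the ACTB ratio, values without rhSTIP1 array 2 are given for HSF1 and for at least 1 probe set of each chaperone gene.

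The signals of HSPA1A and HSPA1B, the inducible HSP70 genes, were higher on both rhSTIP1 arrays than on either control, by 1.97- to 2.33-fold over their 3 probe sets. In the unpaired fit below, no probe set of HSF1 or of its other known chaperone targets had an unadjusted p under 0.05. Their differences lay on both sides of 0. The deposited signals are linear MAS5 values, in which each probe set is summarised and each array scaled by itself. Group differences are given on the log2(signal + 16) scale, with the standard error from limma's model of all 27307 probe sets whose mean signal reached 69.4. Of the 17 probe sets 15 reached it. With Benjamini-Hochberg adjustment over all 27307, limma called 0 of the 15 and 0 of all probe sets (0%), at an adjusted p of 0.9998 for each of the 15. At an unadjusted p under 0.05 there were 3 of the 15, all higher with rhSTIP1 and all of HSPA1A and HSPA1B, against 878 or 3.22% of all probe sets tested, and 0.905% that were higher. None of the differences described below is therefore called over the whole array by this fit, which does not pair the arrays by their number.

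**Figure D1:**
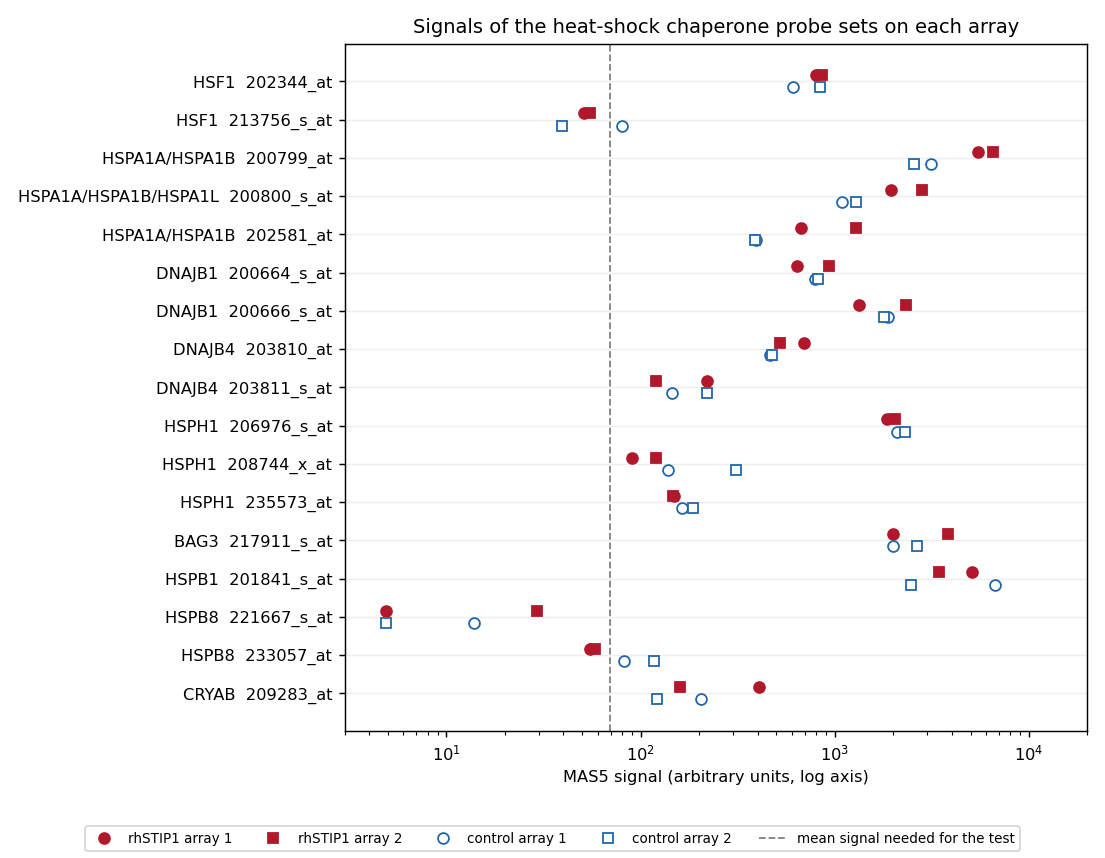
MAS5 signals of all 17 probe sets (log axis, arbitrary units), with rhSTIP1 arrays as filled red points above the control arrays as open blue points, and the dashed line at the mean signal of 69.4 needed for the test. In the 3 rows of HSPA1A and HSPA1B both red points lie to the right of both blue points, and in 7 of the other 12 tested rows the groups overlap. Levels of different probe sets are not comparable with each other.

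HSF1, the regulator, had signals of 802 and 862 on the rhSTIP1 arrays and 608 and 842 on the control arrays (202344_at). The second rhSTIP1 array was the highest, and the first lay between the controls. The log2 fold change was 0.21 ± 0.28 (95% interval -0.43 to 0.86), a difference smaller than the gap between the controls. It was 0.16 when rhSTIP1 array 2 was left out, -0.02 when control array 1 was and 0.44 when control array 2 was. The other HSF1 probe set, 213756_s_at, was dim at 51.1 and 55.1 with rhSTIP1 and 79.9 and 39.2 in controls and was not tested. The arrays measure the transcript and not the activity of HSF1, which is controlled mainly on the protein.

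HSP70 made by HSPA1A and HSPA1B is a strongly heat-inducible chaperone of the cytosol. The brightest probe set of these genes, 200799_at, had signals of 5479 and 6508 with rhSTIP1 and 3142 and 2554 in controls, or 5994 ± 728 and 2848 ± 416 (mean ± SD, n = 2 arrays each). The lowest rhSTIP1 array lay well above the highest control. The log2 fold change was 1.07 ± 0.23 (95% interval 0.54 to 1.60), or 2.10-fold (limma, unadjusted p = 0.00172). This was the 44th smallest p of the 27307 probe sets, and its adjusted p was 0.9998.

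The other HSP70 probe sets gave the same direction on each array. The probe set 202581_at had signals of 673 and 1289.7 with rhSTIP1 and 392 and 389 in controls, a log2 fold change of 1.22 ± 0.34 (limma, unadjusted p = 0.00788). The controls nearly coincided and both rhSTIP1 arrays lay above them, the second by far the higher. The probe set 200800_s_at, assigned also to HSPA1L, had 1951 and 2819.5 with rhSTIP1 and 1089.7 and 1283 in controls, 0.98 ± 0.28 (limma, unadjusted p = 0.00836). HSPA1L, an HSP70 of the testis, had a probe set of its own at 70.9 and 50.8 with rhSTIP1 and 72.3 and 81.8 in controls, dim in both groups. The 3 probe sets read transcripts of the same pair of genes in the same 4 samples and are not independent observations.

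The difference in HSPA1A and HSPA1B was smaller without rhSTIP1 array 2, the array with the high ACTB ratio. Its sign could not turn, because each rhSTIP1 array lay above both controls. Without rhSTIP1 array 2 the log2 fold changes were 0.95 for 200799_at, 0.76 for 202581_at and 0.71 for 200800_s_at. Without rhSTIP1 array 1 they were 1.20, 1.68 and 1.24. For 200799_at they were 1.22 without control array 1 and 0.92 without control array 2. The unadjusted p of 202581_at was 0.0582 and that of 200800_s_at 0.0622 without rhSTIP1 array 2 (limma, with the lone rhSTIP1 array assumed to vary like the controls). In RNA of whole cultures, a change in all cells and a larger change in part of them cannot be told apart.

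**Figure D2:**
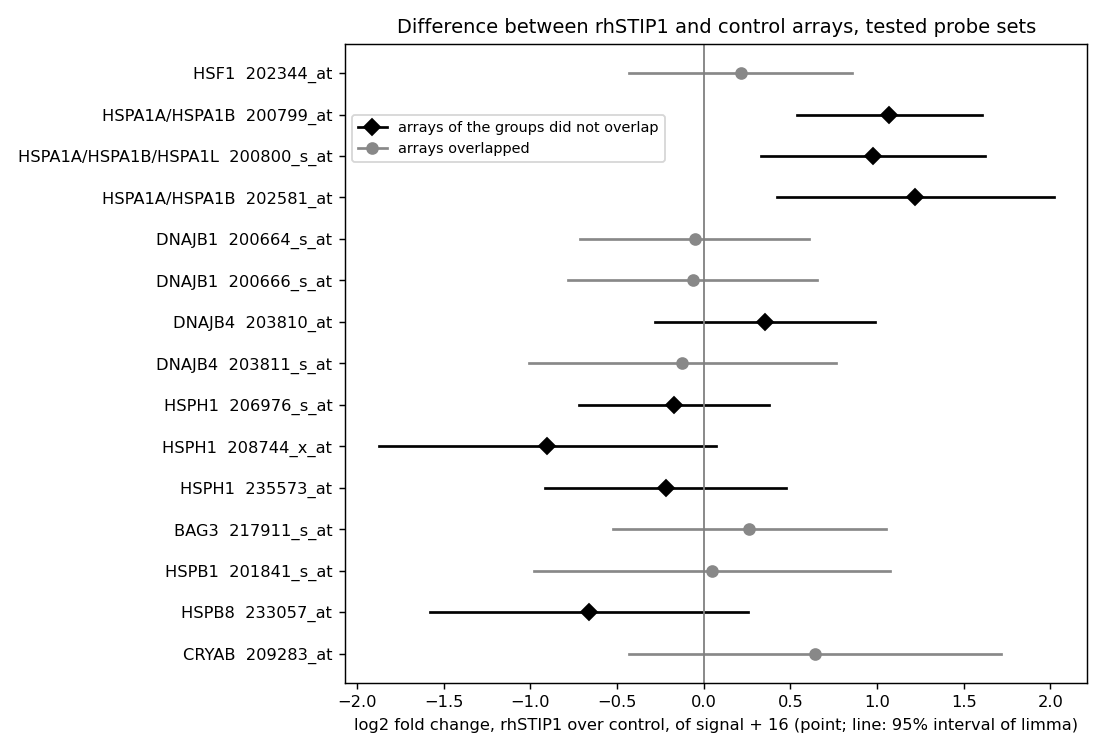
Log2 fold change of rhSTIP1 over control arrays for the 15 tested probe sets (points) with the 95% interval of limma (lines), in black where groups were apart and in grey where they overlapped. The intervals of the 3 HSPA1A and HSPA1B probe sets lie above 0 and those of the other 12 include 0.

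No probe set of the DNAJ cochaperones passed at an unadjusted p under 0.05. DNAJB1, the HSP40 that partners inducible HSP70 and is itself a strong HSF1 target, had signals of 1328 and 2315 with rhSTIP1 and 1876 and 1794 in controls (200666_s_at). The rhSTIP1 arrays lay on either side of both controls, which were close to each other. The log2 fold change was -0.06 ± 0.31 (95% interval -0.78 to 0.65), and it was 0.33 without rhSTIP1 array 1 and -0.46 without rhSTIP1 array 2. Its other probe set, 200664_s_at, also had the controls between the rhSTIP1 arrays, at 641 and 936 with rhSTIP1 and 787 and 821 in controls, and -0.05 ± 0.29. DNAJB4, a related HSP40, had 698 and 525 with rhSTIP1 and 466 and 476 in controls (203810_at). Both rhSTIP1 arrays were the higher, but the log2 fold change of 0.35 ± 0.27 did not pass at an unadjusted p of 0.234 (limma). It was 0.15 without rhSTIP1 array 1 and 0.55 without rhSTIP1 array 2. Its dimmer probe set 203811_s_at, at 219 and 119.8 with rhSTIP1 and 145 and 219.8 in controls, overlapped between the groups at -0.12 ± 0.38, so the probe sets of DNAJB4 disagreed in sign.

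The nucleotide exchange factors of HSP70 showed no difference that passed at an unadjusted p under 0.05 in the unpaired fit. HSPH1, the inducible HSP110, had signals of 1851 and 2046 with rhSTIP1 and 2100.3 and 2291 in controls (206976_s_at). Both rhSTIP1 arrays were slightly the lower, at -0.17 ± 0.24 (95% interval -0.72 to 0.38), or -0.24 without rhSTIP1 array 2 and -0.10 without rhSTIP1 array 1. Its other probe sets were also lower on both rhSTIP1 arrays. The probe set 208744_x_at had 90.2 and 119 with rhSTIP1 and 138 and 310.5 in controls, at -0.90 ± 0.42 (limma, unadjusted p = 0.0647). It is dim, its suffix marks probes that may bind other transcripts, and the value was -1.08 when rhSTIP1 array 2 was left out, -0.36 when control array 2 was and -1.44 when control array 1 was. The probe set 235573_at had 148 and 147 with rhSTIP1 and 164 and 185 in controls, at -0.22 ± 0.30. All 3 HSPH1 probe sets thus lay on the lower side without passing the test. BAG3, which joins HSP70 to HSPB8 for selective autophagy, had 2005 and 3809 with rhSTIP1 and 2005 and 2637 in controls (217911_s_at). Only the second rhSTIP1 array stood above the controls, and the log2 fold change of 0.26 ± 0.34 was -0.20 without that array and 0.72 without rhSTIP1 array 1.

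The small heat-shock proteins varied more between arrays of a group than between groups, apart from a dim HSPB8 probe set. HSPB1, also known as HSP27, had signals of 5094 and 3441 with rhSTIP1 and 6681 and 2459 in controls (201841_s_at). In both groups array 1 was the higher, and the controls enclosed both rhSTIP1 arrays. The log2 fold change was 0.05 ± 0.44 (95% interval -0.98 to 1.07), and it was 0.33 when rhSTIP1 array 2 was left out, 0.76 when control array 1 was and -0.67 when control array 2 was. CRYAB, alpha-B crystallin, had 407 and 159 with rhSTIP1 and 205 and 121 in controls (209283_at). Here too array 1 was the higher in both groups, and the second rhSTIP1 array lay between the controls. Its log2 fold change of 0.64 ± 0.46 was 0.01 without rhSTIP1 array 1 and 1.28 without rhSTIP1 array 2. Without rhSTIP1 array 2 it was larger than those of the HSPA1A and HSPA1B probe sets, at 0.95, 0.76 and 0.71. HSPB8 was near the lower limit of the tested range, at 55.1 and 58.0 with rhSTIP1 and 82.3 and 118 in controls (233057_at). Both rhSTIP1 arrays were the lower, at -0.66 ± 0.40 (limma, unadjusted p = 0.135), with -0.69 when rhSTIP1 array 2 was left out, -0.88 when control array 1 was and -0.44 when control array 2 was, and only the controls brought the mean to the level for testing. The other HSPB8 probe set, 221667_s_at, was at 4.86 and 29.2 with rhSTIP1 and 13.9 and 4.90 in controls and was not tested.

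**Figure D3:**
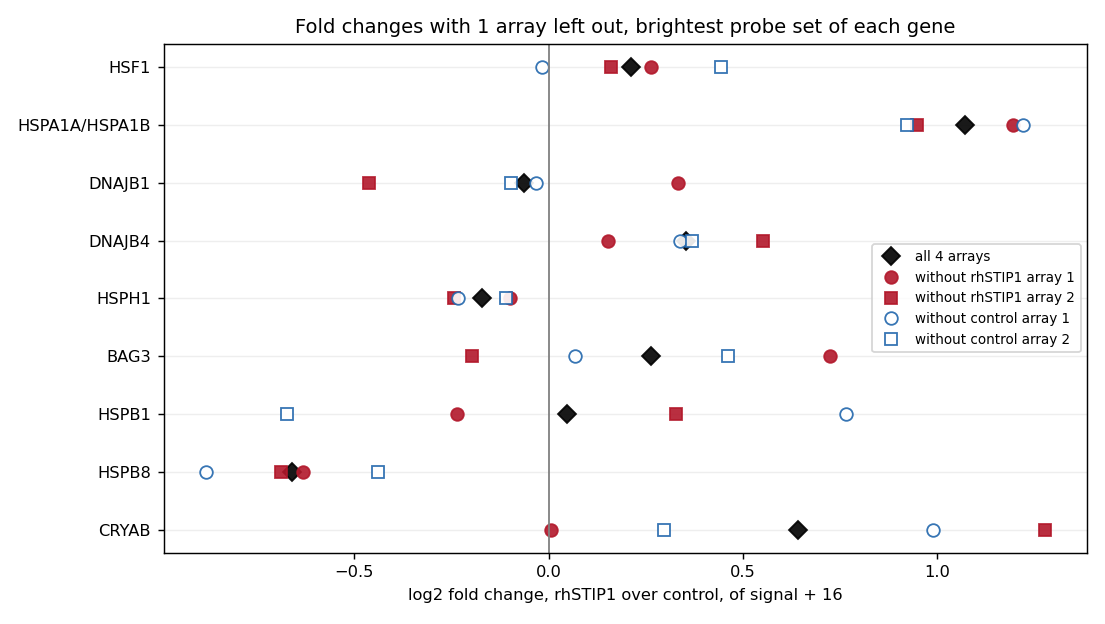
Log2 fold change of rhSTIP1 over control for the brightest probe set of each gene with all 4 arrays (black diamond) and with 1 array left out (red where a rhSTIP1 array and open blue where a control array was left out). HSPA1A/HSPA1B stays between 0.92 and 1.22, and HSPH1, HSPB8, DNAJB4 and CRYAB keep their sign. Of these only CRYAB could have changed sign, because the groups did not overlap for the others. HSF1, DNAJB1, BAG3 and HSPB1 have values on both sides of 0.

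Counted over the tested probe sets, 8 lay above 0 and 7 below, with a median log2 fold change of 0.05, beside 0.00 over all 27307. The groups did not overlap for 8 of the 15, 4 higher and 4 lower with rhSTIP1, beside 28.2% of all probe sets, 12.8% higher and 15.4% lower. They were apart by at least 1.5-fold for 5, beside 6.42% of all, 2.07% higher and 4.35% lower. These 5 were the 3 probe sets of HSPA1A and HSPA1B, which were higher, and 208744_x_at of HSPH1 and 233057_at of HSPB8, which were lower. Because 233057_at reached the tested level only through the controls, its lower value adds nothing to these counts. Without it, 7 of 14 did not overlap, 3 of them lower, and 4 were apart by at least 1.5-fold. Of these 7, 3 read the shared transcripts of HSPA1A and HSPA1B, and the 3 lower ones are all of HSPH1. By gene, with the brightest probe set of each, 2 of 9 were apart by at least 1.5-fold, beside 5.70% of all genes. They were HSPA1A/HSPA1B and HSPB8. The latter counted by the same 233057_at, which adds nothing to this count either, so only HSPA1A/HSPA1B remains. Among the 12 probe sets outside HSPA1A and HSPA1B, 233057_at included, 0 had an unadjusted p under 0.05 in this unpaired fit. Their median was -0.06.

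The difference in HSPA1A and HSPA1B relative to the other genes was measured within each array as the log2 ratio of 200799_at to the brightest probe set of each of the other 8 genes, a comparison chosen after the values were seen. All 8 ratios share 200799_at, which was taken because it was higher with rhSTIP1, so they are a description and not separate observations. The fold change of 200799_at lay at percentile 99.5 of all tested probe sets, so higher ratios to most genes follow from that choice. The ratio to HSPH1 was 1.56 and 1.66 on the rhSTIP1 arrays and 0.58 and 0.16 on the controls, a difference of 1.24. The ratio to DNAJB1 was 2.03 and 1.48 with rhSTIP1 and 0.74 and 0.51 in controls, a difference of 1.14. That to HSPB1 was 0.10 and 0.92 with rhSTIP1 and -1.08 and 0.05 in controls, a difference of 1.03. The ratio was higher on both rhSTIP1 arrays for 7 of the 8 genes. CRYAB was the exception, at 3.70 and 5.22 with rhSTIP1 and 3.83 and 4.23 in controls. HSPB8 is among the 7, though its probe set reached the tested level only through the controls. The exact two-sided permutation test gave p = 0.333 for each of the 7, the smallest that 2 arrays against 2 allow, and 0.381 after Benjamini-Hochberg adjustment over the 8, so this permutation test cannot reach 0.05. The sign of a ratio itself carries no meaning, because signals of different probe sets are not on a common scale.

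The wider chaperone network was described from lists of related genes, in a limma fit with the brightest probe set of each gene. Of 60 genes 46 were tested, 29 above 0 and 17 below, with a median log2 fold change of 0.07 beside 0.02 over all 12297 genes tested. Of all 12297, 6540 were above 0 and 5757 below. By limma 0 passed with adjustment, as for all genes (0%), and 1 had an unadjusted p under 0.05, beside 3.68% of all genes. The groups were apart by at least 1.5-fold for that 1 gene, beside 5.70% of all genes. It was HSPA2, another HSP70 that is abundant in testis, with signals of 2029 and 3088 with rhSTIP1 and 1408 and 1464 in controls. Both rhSTIP1 arrays lay above both controls, at 0.80 ± 0.27 (limma, unadjusted p = 0.0199), and the value was 0.49 without rhSTIP1 array 2.

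Of the 8 other HSP70 and HSP110 genes tested, 7 were above 0, beside 6540 of all 12297 genes, with a median of 0.25. HSPA4, a constitutive HSP110, had 0.02 ± 0.21, and HSPA9, the mitochondrial HSP70, 0.32 ± 0.24 with overlapping arrays, both chosen after their values were seen. HSPA6, which is nearly silent in human cells until they are heated, was below the tested level at 24.1 and 67.6 with rhSTIP1 and 20.6 and 9.10 in controls, and was likewise chosen after its values were seen. Its rhSTIP1 signals were the higher but lay in the range where MAS5 values scatter widely.

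The remaining lists held no gene with an unadjusted p under 0.05. The 12 other DNAJ genes had a median of 0.07, and the smallest p belonged to DNAJB12, a membrane-bound DNAJ protein, at 0.30 ± 0.24, and to DNAJC8 at 0.14 ± 0.23. DNAJB12 was at 0.15 without control array 1, and DNAJC8 at -0.06 without rhSTIP1 array 1. The 7 BAG proteins and other HSP70 cofactors had a median of 0.15, with BAG5 at -0.38 ± 0.22 and the exchange factor HSPBP1 at 0.31 ± 0.25. Without rhSTIP1 array 1 they were at -0.19 and 0.10. HSP90, its cochaperones and the mitochondrial chaperonin had a median of 0.10 over 12 genes. Among these CHORDC1, an HSP90 cochaperone that is itself heat-inducible, had 2157 and 2469 with rhSTIP1 and 3402 and 2475 in controls, at -0.33 ± 0.25, and the chaperonin subunit HSPE1 had 0.21 ± 0.21. CHORDC1 was at -0.10 without control array 1, and HSPE1 at 0.02 without control array 2. Of 7 relatives and regulators of HSF1 6 were below 0, beside 5757 of all 12297 genes, with a median of -0.14. The acetyltransferase EP300 had -0.30 ± 0.23 and the deacetylase SIRT1, which prolongs DNA binding of HSF1, -0.23 ± 0.23, or -0.08 without rhSTIP1 array 1. The other small heat-shock proteins, among them HSPB2, the neighbour of CRYAB, were all below the tested level in the 6 of 7 genes with a usable probe set.

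**Figure D4:**
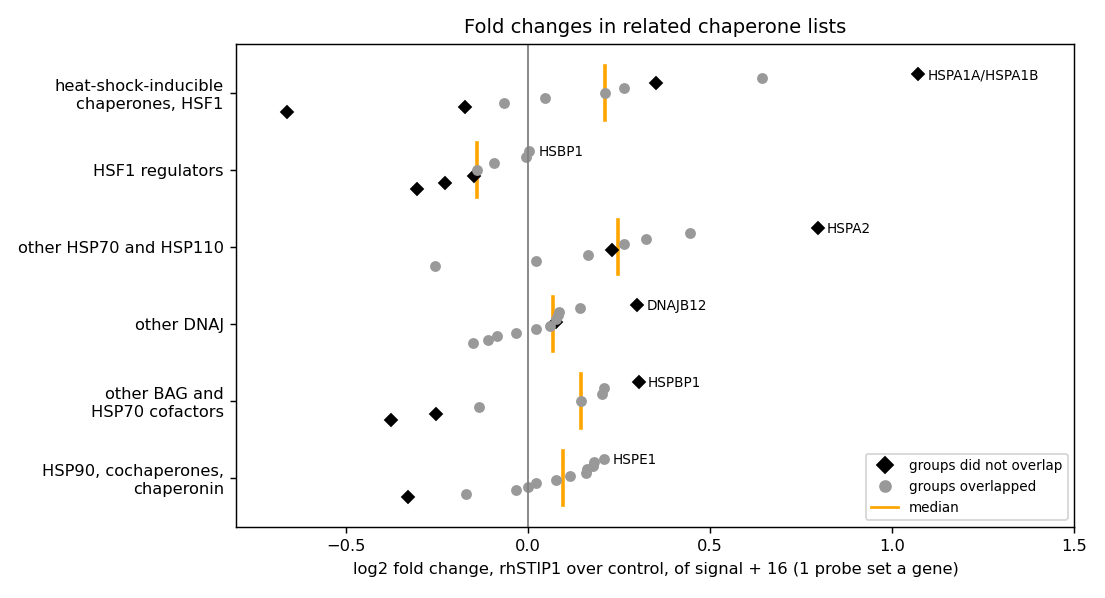
Log2 fold change of rhSTIP1 over control, 1 probe set a gene, for the heat-shock-inducible chaperones with HSF1 and 5 lists of related genes. Black diamonds are genes whose arrays did not overlap between the groups, grey points those that did, orange lines the medians, and the highest gene of each list is named. HSPA1A/HSPA1B at 1.07 and HSPA2 at 0.80 lie furthest to the right.

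The genes with a pattern most like that of HSPA1A and HSPA1B were sought among 12288 other tested genes by the root mean square difference of the centred log2 signals over the 4 arrays. The closest was RBM24, an RNA-binding protein, at a difference of 0.06, with signals of 522 and 612 with rhSTIP1 and 321 and 243 in controls. SERTAD1, a cofactor of CDK4 and E2F, followed at 0.11, with 1380 and 1879.6 with rhSTIP1 and 952 and 765 in controls. USP5, a deubiquitinase, was at 0.13, with 163 and 197.5 with rhSTIP1 and 90.5 and 52.8 in controls. In all, 15 genes lay within 0.2. With 4 arrays such likeness describes these samples only.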

How the data were processed

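Transcripts were measured on 4 arrays, 2 with rhSTIP1 and 2 controls, grouped by their titles. Per the submitters' processing notes the authors used MAS5 and Affymetrix Expression Console 1.1, and the deposited intensities are linear signals of probe sets. The target of the scaling is not given in the sources used here. The table holds no detection calls, so dim signals could not be told from background. The platform annotation named the genes. Control probe sets (62) were left out.

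Signals were analysed as log2(signal + 16) in limma 3.58.1 (R 4.3.3), with eBayes allowing a trend over intensity, two-sided, with Benjamini-Hochberg adjustment at 0.05, on probe sets whose mean over the arrays reached the median of such means. Each had 2 residual degrees of freedom and 5.78 from the shared spread. The fold change understates the change of dim genes. In lists, a gene was represented by its brightest probe set with 1 symbol. Named from each list were genes with an unadjusted p under 0.05 and groups apart by at least 1.5-fold, otherwise the 2 with the smallest p. The members and lists were chosen with earlier results of these data known. The code was tested on simulated data. The number of arrays limits the precision. Alternatives covered the pseudocount, filter, scaling, probe sets, trend, replicate block and leaving out each array.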

Additional observations from a re-analysis of the deposited data

How the results depend on the processing

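The 3 probe sets of HSPA1A and HSPA1B stayed above 0 in all 37 refits of the 13 alternatives in which they were tested. For most of these refits that was fixed in advance. Both rhSTIP1 arrays lay above both controls, so another pseudocount, filter, trend, block, choice of probe sets or dropped array could not turn the sign. Only the scaling alternatives could have. Of 292 refits of 24 named values 279 kept their sign and their side of the adjusted threshold. The number of heat-shock probe sets apart by at least 1.5-fold was 3 with the filter at the 70th percentile, which leaves out the dim HSPH1 and HSPB8 probe sets, and 2 with 1 probe set per gene. With 1 array left out it ran from 4 to 7. The background moved as well. Of everything tested, 6.42% was apart by at least 1.5-fold in the main fit, 4.64% with the stricter filter and 5.70% with 1 probe set per gene. When an array was dropped this share was larger, at least 11.6% and at most 17.1%. The 4 to 7 can therefore not be compared directly with the 5 of the main fit. With 1 array left out 0 heat-shock probe sets passed with adjustment, and the number of all probe sets that passed was lowest without rhSTIP1 array 1, at 1, and highest without rhSTIP1 array 2, at 7. The titles link the arrays of the groups only by a number, and whether arrays with the same number were handled together is not stated. The gaps from array 1 to array 2 of the groups correlated over probe sets at r = 0.35. With the replicate number as a block 261 probe sets passed, among them 3 of the heat-shock group, all of HSPA1A and HSPA1B (limma, adjusted p = 0.00937, 0.0303 and 0.0347). At an unadjusted p under 0.05 the block gave 5 of the 15, beside 2208 of all 27307. Besides HSPA1A and HSPA1B these were 208744_x_at of HSPH1, lower, and CRYAB, higher (limma, unadjusted p = 0.0154 and 0.0455). The share of lower values among all probe sets apart by at least 1.5-fold was 67.8%, 53.6% with median centring and 49.6% without control array 2. The sign of small differences turned in 10 refits. With median centring 200664_s_at of DNAJB1 was at 0.00297. With 1 array left out the values ran from -0.0166 to 0.44 for HSF1, -0.32 to 0.21 and -0.46 to 0.33 for the DNAJB1 probe sets, -0.52 to 0.27 for 203811_s_at of DNAJB4, -0.20 to 0.72 for BAG3, -0.67 to 0.76 for HSPB1 and -0.0583 to 0.34 for DNAJC8, and the causes were not tested. Dim probe sets such as those of HSPB8 are limited by the scatter of MAS5 signals near background.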
